A study of Mus musculus with 6 samples.

Results

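The genes described are 10 antioxidant enzymes, several of them targets of the transcription factor NRF2, chosen by symbol from the table of 29616 genes that RNA sequencing of mouse bone cells gave. They are the superoxide dismutases Sod1, Sod2 and Sod3, catalase (Cat), the glutathione peroxidases Gpx1, Gpx3 and Gpx4, heme oxygenase 1 (Hmox1), the quinone reductase Nqo1 and thioredoxin reductase 1 (Txnrd1). All 10 had a row in the table, and all 10 were among the 17442 genes tested, whose mean over the libraries was 10 normalized counts or more.

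Aerobic cells make superoxide and hydrogen peroxide as by-products of respiration and of oxidase enzymes. Superoxide dismutases turn superoxide into hydrogen peroxide, which catalase, glutathione peroxidases and peroxiredoxins then break down, the peroxidases drawing on glutathione and thioredoxin that reductases restore. NRF2, encoded by Nfe2l2, is held low by KEAP1 and the CUL3 ubiquitin ligase, and when it escapes them it pairs with small MAF proteins at antioxidant response elements and switches on genes such as Nqo1, Hmox1 and Txnrd1. In bone, oxidative stress is known to impair osteoblasts and to favour osteoclasts, and glucocorticoid excess is a known cause of bone loss.

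The 6 libraries came from mice labelled C57BL/6 (the study's methods give the wild type as C57BL/6J), 3 from controls and 3 from animals given dexamethasone, a synthetic glucocorticoid. The study's methods give 0.08 µg/g as the daily dose, begun at 8 weeks of age and kept up over 4 weeks. Figure captions give saline for control animals, while the text on the sorted cells calls the controls non-treated. The labels name no altered allele. The labels call the material bone cells, and the paper describes Osteocalcin-positive cells taken from bones freed of marrow. The libraries are stated to be biological replicates, but whether each was 1 animal or a pool was not stated, so p-values measure only the spread between these libraries. Control replicates 1 to 3 had 83025489, 81186636 and 88354925 reads, and dexamethasone replicates 1 to 3 had 89910728, 75526030 and 72596611, and values are given in that order throughout. A normalized count is the number of reads of a gene divided by a size factor of its library, and 1 read was worth 0.879 to 1.16 normalized counts.

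The label was checked against markers of bone-forming cells. The type I collagen gene Col1a2 had 1024281, 1086854 and 1085158 normalized counts in the 3 control libraries and 555458, 496246 and 496400.4 in the 3 dexamethasone libraries. Its mean over all 6 libraries was the highest of the osteoblast list, while in the dexamethasone libraries that of Spp1, 1279674, was higher. Bglap, the gene of Osteocalcin, is given because the cells were described by its protein, and had 98.2, 102 and 122 normalized counts in the control libraries and 9.54, 11.99 and 15.1 in the dexamethasone libraries. By count, not divided by length, Bglap is therefore low in all 6 libraries, and lower in each dexamethasone library than in each control library. Its near-identical copy Bglap2 had 339, 333 and 300 normalized counts in the control libraries and 29.6, 30.5 and 33.7 in the dexamethasone libraries. Reads of the copies Bglap2 and Bglap3 make the count of Bglap uncertain. Of the 12 osteoblast markers tested, 10 were lower and 2 (Spp1 and Phex) higher with dexamethasone at a limma adjusted p under 0.05, where 35.2% and 37.2% of all tested genes were. In bulk libraries fewer cells of a type and less RNA per cell cannot be told apart.

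Of the 10 enzymes, 5 were higher and 3 lower with dexamethasone at a limma adjusted p under 0.05. Those higher were Txnrd1, Gpx3, Nqo1, Hmox1 and Cat, and those lower were Sod3, Sod2 and Gpx4. Sod1 and Gpx1 did not pass. Over all tested genes 37.2% were higher and 35.2% lower by the same rule, so passing the test was common, and 8 of 10 is a share near that background. With a log2 fold change of at least 1 asked for as well, 3 were higher, Txnrd1, Gpx3 and Nqo1, and 0 were lower, where 11.7% and 10.6% of all tested genes passed in the 2 directions. The count of 0 was the same at an unadjusted limma p under 0.05, and with edgeR and DESeq2. The groups of libraries did not overlap for 9 of the 10, 5 higher and 4 lower, against 38.4% and 36.4% of all tested genes. The median log2 fold change was 0.14 for the 10 enzymes and 0.00071 for all tested genes, and the median size of the change, without its sign, was 0.35 and 0.45. The median of the 10 was -0.0339 with quantile normalization and 0.0211 with libraries brought to the same total. For the 9 with a mean of 100 or more, all but Gpx3, it was -0.052, so its sign was not settled.

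**Figure D1:**
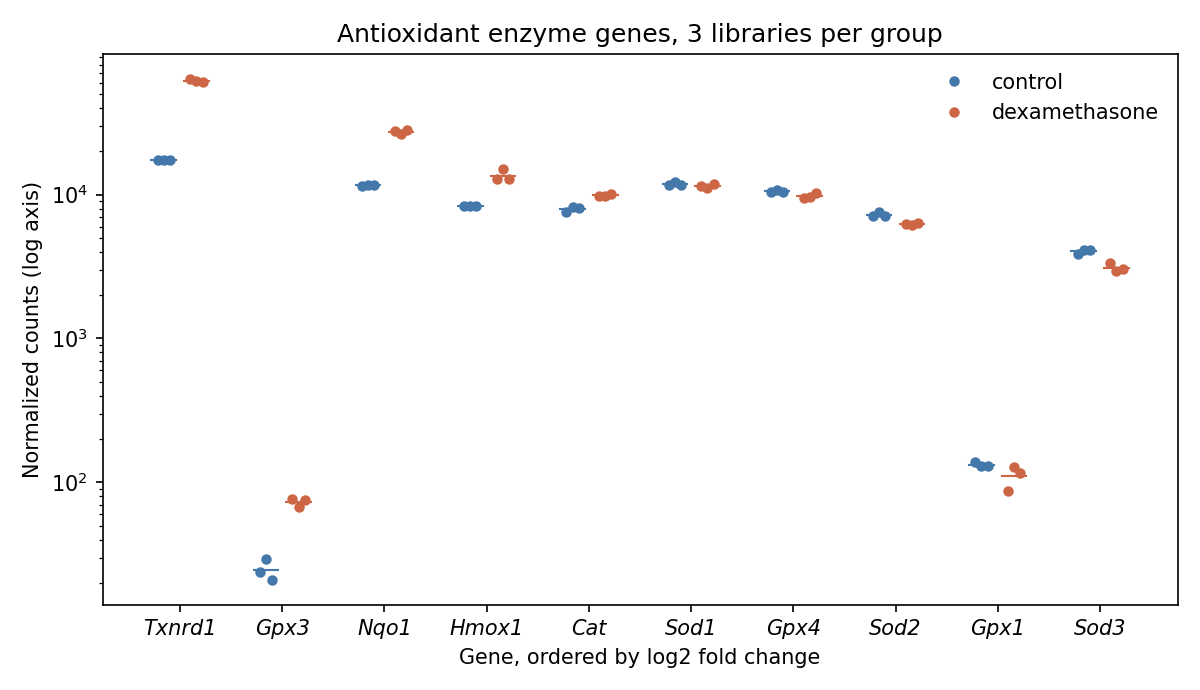
Normalized counts of the 10 antioxidant enzyme genes on a log axis, with 1 point per library (3 control, 3 dexamethasone) and a line at each group mean, ordered by log2 fold change. Txnrd1 lay between 17282 and 17460.4 in the control libraries and between 60522 and 63586 in the dexamethasone libraries, while the points of Sod1 overlapped.

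Txnrd1 had the largest fold change of the 10 enzymes, followed by Gpx3 and Nqo1. Txnrd1 encodes the cytosolic selenoprotein that uses NADPH to keep thioredoxin reduced. It had 17388, 17460.4 and 17282 normalized counts in the 3 control libraries, and 63586, 62059 and 60522 in the 3 dexamethasone libraries. All 3 dexamethasone libraries were high and within a narrow range, far above all 3 control libraries. The mean went from 17377 ± 89.9 to 62055 ± 1532 normalized counts (SD, n = 3 each), 3.57-fold, and the log2 fold change was 1.84 (SE 0.0356, adjusted p = 1.1e-23 in limma).

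Nqo1 encodes the cytosolic enzyme that reduces quinones by 2 electrons at once, without a semiquinone radical in between, and is a standard readout of NRF2 activity. Its control libraries had 11421, 11597 and 11699.8 normalized counts, and its dexamethasone libraries 27597, 26301 and 28114. Each dexamethasone library was far above the control libraries, and the groups did not overlap. Nqo1 rose 2.36-fold, from 11573 ± 141 to 27337 ± 934 normalized counts (SD, n = 3 each), with a log2 fold change of 1.24 (SE 0.0355, adjusted p = 3.2e-20 in limma).

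Hmox1 encodes the inducible enzyme that opens heme to biliverdin, carbon monoxide and iron. In the 3 control libraries it had 8299, 8339 and 8308 normalized counts, and in the 3 dexamethasone libraries 12851, 14970.5 and 12874. The control libraries were almost level, whereas dexamethasone replicate 2 stood above the other two of its group, and the groups did not overlap. Hmox1 rose 1.63-fold, to 13565 ± 1217 from 8315 ± 20.8 normalized counts (SD, n = 3 each), and its log2 fold change was 0.70 (SE 0.0449, adjusted p = 5.0e-13 in limma). Without dexamethasone replicate 2 the log2 fold change was 0.63.

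The enzymes that remove hydrogen peroxide and lipid peroxides went in different directions. Catalase, the peroxisomal enzyme that splits hydrogen peroxide into water and oxygen, had 7581, 8169.5 and 8009 normalized counts in the control libraries and 9840.4, 9701 and 10159 in the dexamethasone libraries. Every dexamethasone library was above every control library, by a smaller margin than for Nqo1. Cat was 25.0% higher with dexamethasone, at 9900.3 ± 235 against 7919.98 ± 304 normalized counts (SD, n = 3 each), a log2 fold change of 0.32 (SE 0.0369, adjusted p = 2.6e-08 in limma). The increase was smaller under other scalings of the libraries, with a log2 fold change of 0.21 at the same total and 0.12 after quantile normalization.

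Gpx3, which encodes the secreted glutathione peroxidase, was a low transcript with a large change. Its reads numbered 26, 30 and 24 in the control group and 80, 62 and 65 in the dexamethasone group. As normalized counts these were 23.9, 29.4 and 21.1 in the control libraries and 76.3, 67.6 and 75.6 in the dexamethasone libraries. All 3 dexamethasone libraries were well above any control library. The mean rose 2.95-fold, from 24.8 ± 4.21 to 73.2 ± 4.84 normalized counts (SD, n = 3 each), with a log2 fold change of 1.54 (SE 0.218, adjusted p = 8.6e-07 in limma). The standard error was the highest of the 10 enzymes, at the lowest number of reads.

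Gpx1, the gene of the cytosolic glutathione peroxidase, had 139.5, 129 and 130.1 normalized counts in the 3 control libraries and 86.8, 128 and 116 in the 3 dexamethasone libraries. Dexamethasone replicate 1 was the low library, and dexamethasone replicate 2 came close to the lowest control library, although the groups did not overlap. The log2 fold change of -0.29 (95% interval -0.59 to 0.02, adjusted p = 0.0867 in limma) did not pass the threshold. It was -0.40 with all libraries at the same total (adjusted p = 0.0284 in limma) and -0.40 without dexamethasone replicate 2 (adjusted p = 0.0244 in limma), both past the threshold. Without the low library, dexamethasone replicate 1, it was -0.12 (adjusted p = 0.467 in limma), and after quantile normalization -0.19. The adjusted p ran from 0.0244 to 0.467 over all alternatives.

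Gpx4 encodes the glutathione peroxidase that reduces lipid hydroperoxides within membranes and holds back ferroptosis. Its control libraries had 10431, 10787 and 10444 normalized counts and its dexamethasone libraries 9416, 9602 and 10305. Dexamethasone replicate 3 nearly reached the control libraries, and the groups just failed to overlap. Gpx4 was 7.39% lower, with a log2 fold change of -0.11 (SE 0.0376, adjusted p = 0.0105 in limma). The call was lost without control replicate 2, at a log2 fold change of -0.10 (adjusted p = 0.0508 in limma), and in limma without the trend (adjusted p = 0.0801), in a range of 5.3e-07 to 0.0801 over all alternatives. The decrease was larger under other scalings, with a log2 fold change of -0.23 at the same total and -0.29 after quantile normalization. Of the 75-base stretches of Gpx4 transcripts in the GENCODE M21 annotation, 70.2% occurred in no other gene, so its count is uncertain where reads of copies could not be told apart.

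Among the superoxide dismutases, both Sod2 and Sod3 fell and Sod1 did not pass the test. Sod3, the extracellular copper and zinc enzyme, had 3865, 4123 and 4121 normalized counts in the 3 control libraries, and 3331, 2922 and 3017 in the 3 dexamethasone libraries. The highest dexamethasone library, replicate 1, was below the lowest control library. Sod3 was 23.4% lower, at 3090.3 ± 214 against 4037 ± 149 normalized counts (SD, n = 3 each), a log2 fold change of -0.39 (SE 0.0458, adjusted p = 4.7e-08 in limma).

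Sod2 encodes the manganese enzyme of the mitochondrial matrix. It had 7094, 7513 and 7078 normalized counts in the control libraries, and 6247, 6187 and 6308 in the dexamethasone libraries. The dexamethasone libraries were close to each other and all below the control libraries. Sod2 was 13.6% lower, with means of 7228 ± 247 and 6247 ± 60.5 normalized counts (SD, n = 3 each) and a log2 fold change of -0.21 (SE 0.0362, adjusted p = 1.4e-05 in limma). The log2 fold change of Sod2 was -0.32 at the same total and -0.42 after quantile normalization. The share of its 75-base stretches found in no other gene was 83.8%, so a part of its count is also uncertain.

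Sod1, the copper and zinc enzyme of the cytosol, had 11746, 12269 and 11749.9 normalized counts in the 3 control libraries, and 11527, 11118 and 11859 in the 3 dexamethasone libraries. Dexamethasone replicate 3 lay above 2 of the 3 control libraries, so the groups overlapped. The log2 fold change was -0.05 (95% interval -0.13 to 0.02, adjusted p = 0.199 in limma). Sod1 passed as lower at the same total (-0.17, adjusted p = 2.0e-05 in limma), after quantile normalization (-0.24, adjusted p = 5.5e-07 in limma) and with edgeR (-0.08, adjusted p = 0.0251), in a range of 5.5e-07 to 0.547 over all alternatives. Bringing all libraries to the same total moved the median log2 fold change of all tested genes to -0.11, and quantile normalization moved it to -0.07.

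To set the 10 genes against each other, normalized counts were divided by the length of the principal transcript in kilobases. In the control libraries Sod1 had the highest level, 18599 ± 469.9 normalized counts per kilobase (SD, n = 3), above 98.8% of the tested genes that have a length. Gpx4 followed at 11005 ± 211 and Nqo1 at 7452 ± 90.9 normalized counts per kilobase. Hmox1, Txnrd1 and Cat came next, with 5299.7 ± 13.3, 4921 ± 25.5 and 3031 ± 116. Sod2 and Sod3 were lower on this scale, at 1233 ± 42.1 and 1079.9 ± 39.8. Gpx1, at 124 ± 5.37, and Gpx3, at 15.5 ± 2.64 normalized counts per kilobase, were the lowest, above 36.3% and 13.5% of the tested genes. No neighbours in this order overlapped in their control libraries. The order rested on the length used. With the length of all exons of a gene, an alternative chosen after the data were seen, the control levels were 7452 ± 90.9 normalized counts per kilobase for Nqo1, 6122 ± 117 for Gpx4, 4749 ± 11.9 for Hmox1, 3031 ± 116 for Cat, 3003 ± 75.9 for Sod1 and 2452 ± 12.7 for Txnrd1 (SD, n = 3). Without division by length Txnrd1, at 17377 normalized counts, stood above Sod1, at 11922. Gpx1 and Gpx3 were the lowest in each case.

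With dexamethasone the order by principal transcript changed at the top. Nqo1 reached 17603 ± 601 and Txnrd1 17574 ± 434 normalized counts per kilobase (SD, n = 3), beside 17943 ± 579 for Sod1. The libraries of Sod1 overlapped those of Nqo1, and those of Nqo1 overlapped those of Txnrd1, so the order among these neighbours was not settled. On this scale Txnrd1 went from the fifth level among the 10 to a level like that of the highest, and with the length of all exons from the sixth to the second, at 8757 ± 216 against 17603 ± 601 normalized counts per kilobase for Nqo1 (SD, n = 3), while Sod1 had 2897 ± 93.5. By principal transcript Gpx4, at 10192 ± 489, stood above Hmox1, at 8646 ± 776 normalized counts per kilobase, and below these Cat, Sod2, Sod3, Gpx1 and Gpx3 followed in the order of the control libraries, with no overlap between neighbours.

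**Figure D2:**
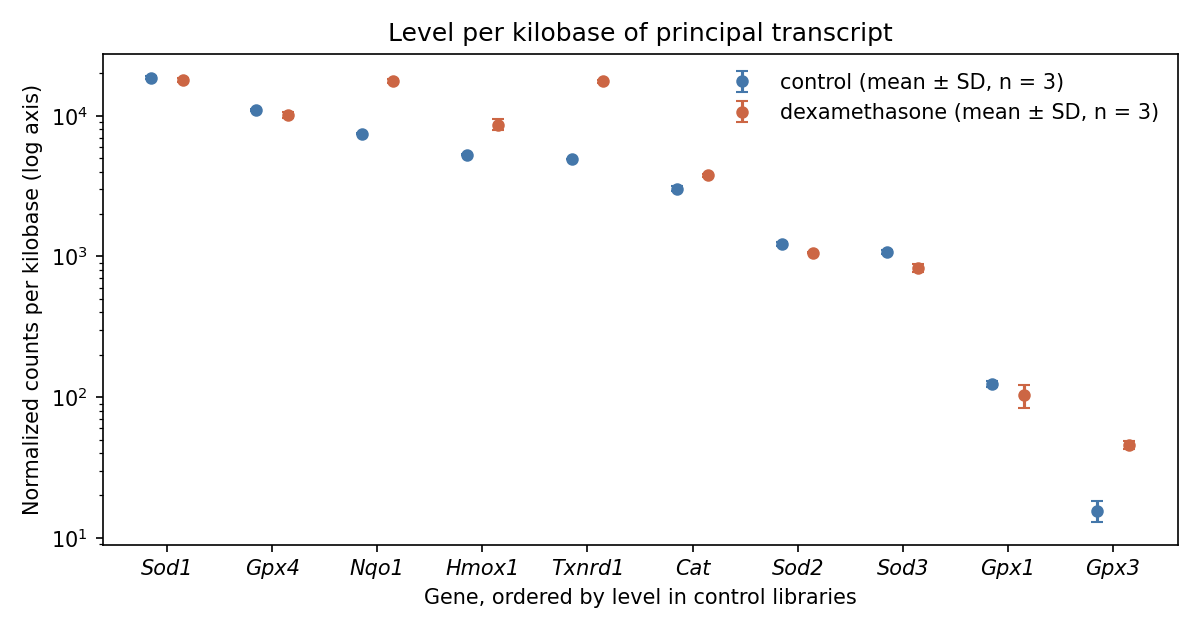
Mean level of each gene in normalized counts per kilobase of its principal transcript, on a log axis, with SD over 3 libraries per group, ordered by the control level. Sod1, Nqo1 and Txnrd1 lie close together in the dexamethasone libraries, at 17943, 17603 and 17574, and Gpx3 is the lowest in both groups.

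The per-kilobase levels were also expressed as shares of the sum of Sod1, Sod2 and Sod3, and of the sum of Gpx1, Gpx3 and Gpx4. Sod3 made up 5.03, 5.12 and 5.34% of the summed Sod level in the 3 control libraries, and 4.47, 4.08 and 3.96% in the 3 dexamethasone libraries. The share was lower in each dexamethasone library, and the difference of -0.996 percentage points had an exact two-sided permutation p of 0.1, the smallest that 3 against 3 libraries allow. Sod1 made up most of the sum in every library, with 89.1, 88.9 and 88.8% in the control and 90.2, 90.4 and 90.8% in the dexamethasone libraries. Of Gpx1, Gpx3 and Gpx4, with the relatives Gpx7 and Gpx8 left out, Gpx4 made up nearly all of the sum, at 98.7, 98.8 and 98.8% in the control and 98.7, 98.4 and 98.6% in the dexamethasone libraries. Gpx3 went from 0.136, 0.162 and 0.12% to 0.481, 0.417 and 0.435% of the same sum, higher in each dexamethasone library, with an exact two-sided permutation p of 0.1 as well. With Gpx7 and Gpx8 added to the sum, an alternative chosen after the data were seen, Gpx4 made up 57.00, 57.3 and 57.5% in the control and 57.3, 58.1 and 58.8% in the dexamethasone libraries, Gpx8 34.5, 34.2 and 33.9% and 36.2, 35.4 and 34.99%, and the difference in the share of Gpx3 was 0.181 percentage points. The shares and the sizes of their differences rested on the transcript lengths used. Without division by length the differences were -2.59 percentage points for Sod3 and 0.505 for Gpx3. The control means of Sod1, Sod2 and Sod3 were then 11922, 7228 and 4037 normalized counts. With the length of all exons they were 3003, 722 and 1080 normalized counts per kilobase. On each of these scales Sod1 made up a smaller part of the sum than by principal transcript.

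Promoter sequences, from 250 bases before to 50 after an annotated start, were read from RefSeq for the GRCm38.p6 build, and 8 of the 10 genes had 1 or more, 13 windows in all. Sod3 and Hmox1 had no entry. The antioxidant response element was searched as TGACNNNGC on both strands, GCNNNGTCA being its form on the other strand, and 12.4% of all 32851 promoters of this length held it. Among the 13 windows, 2 held it, 1 of the 3 Txnrd1 windows and the Sod1 window. A full glucocorticoid response element, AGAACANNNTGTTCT, which reads alike on both strands, was in 3 of all 32851 promoters and in 0 of the 13. A match describes letters in a window and is not a measured site, and the absence of one says nothing of sites outside it. The 2 windows with a match are printed because the genes behind them differed, Txnrd1 having risen 3.57-fold while Sod1 did not pass the test, and the Nqo1 window because the gene rose with no match there. The Txnrd1 window is chr10:82858956-82859255 on the plus strand, with the match at bases 159 to 167. The Sod1 window is chr16:90220512-90220811 on the plus strand, with the match at bases 195 to 203, and the Nqo1 window is chr8:107403156-107403455 on the minus strand. Sequences run 5′ to 3′ on the strand of the gene, and capitals mark the match, which lies on the other strand in both.
Txnrd1: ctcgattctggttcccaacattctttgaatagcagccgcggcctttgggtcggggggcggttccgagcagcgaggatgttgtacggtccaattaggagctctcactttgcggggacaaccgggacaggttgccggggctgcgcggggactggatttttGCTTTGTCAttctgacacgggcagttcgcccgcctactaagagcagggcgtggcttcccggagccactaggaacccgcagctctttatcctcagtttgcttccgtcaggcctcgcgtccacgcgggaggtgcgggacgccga
Sod1: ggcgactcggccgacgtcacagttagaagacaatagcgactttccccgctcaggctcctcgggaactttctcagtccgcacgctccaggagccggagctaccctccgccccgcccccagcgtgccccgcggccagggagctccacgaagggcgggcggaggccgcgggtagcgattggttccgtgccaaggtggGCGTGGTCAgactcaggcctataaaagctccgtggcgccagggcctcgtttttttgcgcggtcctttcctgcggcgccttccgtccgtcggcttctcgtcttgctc
Nqo1: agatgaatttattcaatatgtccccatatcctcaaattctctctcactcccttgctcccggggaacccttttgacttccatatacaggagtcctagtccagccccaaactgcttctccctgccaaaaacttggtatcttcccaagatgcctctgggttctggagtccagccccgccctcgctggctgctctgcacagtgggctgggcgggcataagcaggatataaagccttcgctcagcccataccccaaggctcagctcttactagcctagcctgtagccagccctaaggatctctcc

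The regulators of the pathway moved in both directions. The counts of this and the following lists stand beside 37.2% higher and 35.2% lower among all tested genes. Of 10 genes of NRF2 control that were tested, 6 were higher and 2 lower with dexamethasone at a limma adjusted p under 0.05, with a median log2 fold change of 0.27 (0.156 at the same total and 0.0911 after quantile normalization). After quantile normalization 4 were lower. Nfe2l2 itself had 11681, 11484 and 11580.3 normalized counts in the 3 control libraries, and 15519, 15019.5 and 15617 in the 3 dexamethasone libraries. Its groups did not overlap, and it rose 1.33-fold, a log2 fold change of 0.41 (adjusted p = 7.9e-11 in limma), which was 0.21 after quantile normalization. Keap1, the adaptor that presents NRF2 for degradation, had a log2 fold change of 0.04 (adjusted p = 0.443 in limma), with overlapping groups. It stood at -0.07 at the same total and passed as lower after quantile normalization, at -0.12. Cul3, the scaffold of that ubiquitin ligase, rose with a log2 fold change of 0.41, or 0.19 after quantile normalization.

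The small MAF proteins are the partners of NRF2 on DNA, and Maff changed the most of the regulators. It had 206, 201 and 237 normalized counts in the control libraries and 1237, 1131 and 1178 in the dexamethasone libraries. This was a 5.51-fold increase with no overlap, a log2 fold change of 2.46 (adjusted p = 1.9e-19 in limma). Mafg rose by 0.50 on the log2 scale, or 0.31 after quantile normalization. Mafk passed at 0.13 (adjusted p = 0.0152 in limma), but not at the same total, without limma's trend, or without control replicate 3 or dexamethasone replicate 3, at 0.11 and 0.11, and after quantile normalization it stood at -0.00744. The repressors that compete for the same elements differed, as Bach2 rose by 0.65 while Bach1 had a log2 fold change of 0.03 (adjusted p = 0.49 in limma). Bach1 passed as lower at the same total (-0.08) and after quantile normalization (-0.16).

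Sqstm1 and Nfe2l1 were the 2 that fell. Sqstm1, which encodes the autophagy receptor p62 that can sequester KEAP1 and is itself an NRF2 target, had 83467, 84311 and 80787 normalized counts in the 3 control libraries, and 52961, 50261 and 52507 in the 3 dexamethasone libraries, a log2 fold change of -0.67 (adjusted p = 9.4e-14 in limma). Nfe2l1, a relative of NRF2 that governs proteasome genes, had 48149.6, 50184 and 49202 in the control and 26640.5, 23799 and 24301 normalized counts in the dexamethasone libraries, a log2 fold change of -0.98 (adjusted p = 8.6e-17 in limma). Neither gene's groups overlapped.

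In the list of glutathione supply and recycling, 6 of 11 tested genes were higher and 3 (Ggt5, Chac1 and Chac2) lower, with a median log2 fold change of 0.23 (0.118 at the same total and 0.0875 after quantile normalization), or 0.382 at a mean of at least 100. At the same total 5 were lower. Slc7a11, the cystine transporter that feeds glutathione synthesis, had 3896, 3622 and 3794 normalized counts in the 3 control libraries, and 17149, 18557 and 17335 in the 3 dexamethasone libraries. It rose 4.69-fold with no overlap, a log2 fold change of 2.23 (adjusted p = 1.2e-24 in limma). Its partner chain Slc3a2, the gene of highest mean in the list, had one of -0.06 (adjusted p = 0.154 in limma), and passed as lower under 5 alternatives, with -0.17 at the same total. Gclc and Gclm encode the catalytic and the modifier subunit of glutamate-cysteine ligase, the rate-limiting step. Gclc had 11958, 12186 and 11731 normalized counts in the control and 35129, 34602 and 33383 in the dexamethasone libraries, a 2.87-fold increase. Gclm rose 1.95-fold, and Gsr, which restores reduced glutathione, 1.92-fold, at log2 fold changes of 0.97 and 0.94.

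Of 22 tested glutathione transferases, which join glutathione to electrophiles, 14 were lower and 7 higher, where 35.2% and 37.2% of all tested genes were, with a median log2 fold change of -0.65. With a mean of at least 100 asked for, 8 were lower and 5 higher. The summed level of the list was 39822, 42863 and 40149 normalized counts in the control libraries and 40418, 39538 and 42469 in the dexamethasone libraries, with overlap. Gstm1 had 11627, 12944 and 11879 normalized counts in the control libraries and 4006, 3543 and 3771 in the dexamethasone libraries, a log2 fold change of -1.69 (adjusted p = 6.2e-21 in limma). Gstm2 and Gstt1 fell by 1.71 and 2.46 on the log2 scale. Gstp1, the transcript of highest mean, went the other way, with 9571, 10225 and 9683 normalized counts in the control and 21196, 20579.7 and 22443 in the dexamethasone libraries, a log2 fold change of 1.12 (adjusted p = 1.3e-18 in limma). Mgst2, a membrane-bound member of low level, rose from 27.4 ± 10.1 to 199 ± 14.6 normalized counts (SD, n = 3 each). The mu and pi classes hold near-identical genes, so the counts of Gstm1, Gstm2 and Gstp1 are uncertain in how reads were split.

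**Figure D3:**
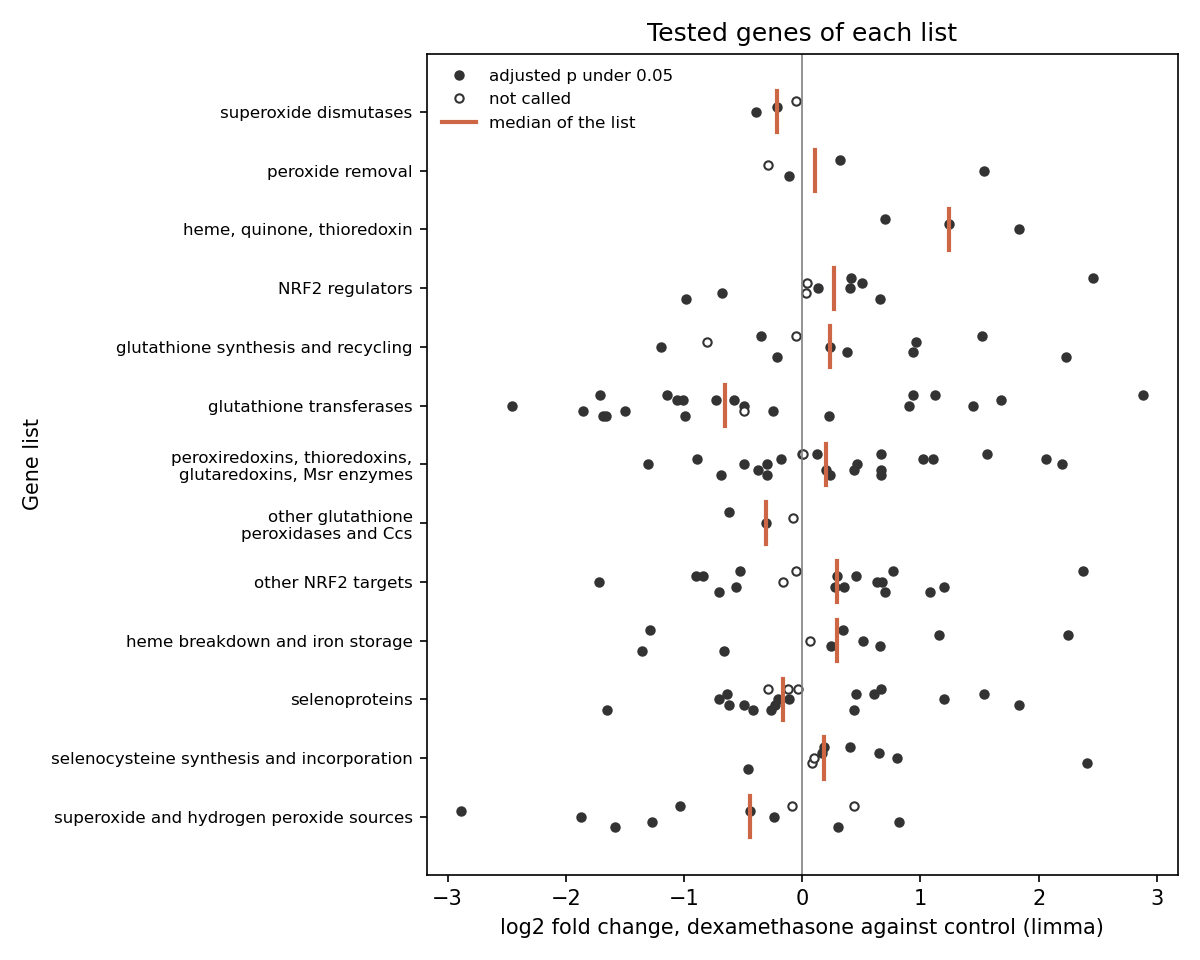
Log2 fold change of every tested gene in the 3 groups of described enzymes and the 10 related lists, with filled points for a limma adjusted p under 0.05, open points for the others and a bar at each median. The medians ran from -0.65 for the glutathione transferases to 1.24 for Hmox1, Nqo1 and Txnrd1, and every list except the superoxide dismutases, the enzymes of heme, quinones and thioredoxin, and the other glutathione peroxidases had called genes on both sides of 0.

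Peroxiredoxins reduce peroxides with thioredoxin as donor, and the list that holds them with thioredoxins, glutaredoxins and methionine sulfoxide reductases had 13 of 23 tested genes higher and 8 lower. Its median log2 fold change was 0.20, 0.0873 at the same total and -0.00353 after quantile normalization. Prdx1, the transcript of highest mean, had 28822, 30358 and 28912 normalized counts in the 3 control libraries, and 84841, 83387 and 91568 in the 3 dexamethasone libraries. It rose 2.95-fold with no overlap, a log2 fold change of 1.56 (adjusted p = 6.7e-21 in limma). Srxn1 encodes sulfiredoxin, which rescues peroxiredoxins oxidized beyond their cycle, and is an NRF2 target. It had 11153, 11594 and 10716 normalized counts in the control and 48341, 45708 and 45844 in the dexamethasone libraries, a 4.18-fold increase. Glrx, the cytosolic glutaredoxin, rose 4.57-fold, with a log2 fold change of 2.19 (adjusted p = 5.7e-21 in limma). Sesn3, a sestrin, fell from 28417 ± 668 to 11507 ± 327 normalized counts (SD, n = 3 each), a log2 fold change of -1.30 (adjusted p = 1.2e-20 in limma).

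Close relatives of the described peroxidases and dismutases were lower or did not pass. Of 3 tested genes 2 were lower, Gpx7 at a log2 fold change of -0.62 (adjusted p = 1.1e-11 in limma) and Ccs, the copper chaperone of Sod1, at -0.31 (adjusted p = 3.6e-07 in limma). Ccs had 2696, 2731 and 2646 normalized counts in the 3 control libraries, and 2229, 2135 and 2157 in the 3 dexamethasone libraries, without overlap. Gpx8, of the endoplasmic reticulum, had a log2 fold change of -0.08 (adjusted p = 0.0603 in limma) and passed as lower under 5 alternatives, with -0.19 at the same total.

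Other genes known as NRF2 targets did not all go the way of Nqo1. Of 19 tested, 11 were higher and 6 lower, with a median log2 fold change of 0.29 (0.178 at the same total and 0.133 after quantile normalization). Aldh3a1, an aldehyde dehydrogenase, had 1019.97, 1145 and 1152 normalized counts in the control libraries and 5845, 5380.4 and 5955 in the dexamethasone libraries, a 5.18-fold increase. Nqo2, the relative of Nqo1, rose 2.3-fold, and Abcc1, an exporter of glutathione conjugates, 2.12-fold. Against these, Ephx1, the microsomal epoxide hydrolase and the transcript of highest mean, had 39344, 41273 and 40664 normalized counts in the control and 21853, 21207 and 21901 in the dexamethasone libraries. Ephx1 had a log2 fold change of -0.90 (adjusted p = 3.0e-17 in limma), and that of the carbonyl reductase Cbr1 was -1.72 (adjusted p = 1.0e-09 in limma).

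In the list of heme breakdown and iron handling, 6 of 10 tested genes were higher and 3 (Ftl1, Slc40a1 and Hpx) lower, with a median log2 fold change of 0.30 (0.183 at the same total and 0.116 after quantile normalization). Blvra, the reductase that turns biliverdin into bilirubin, rose 2.24-fold, from 1064 ± 49.6 to 2381 ± 144 normalized counts (SD, n = 3 each). Tfrc, the transferrin receptor that brings iron in, had 3972, 4109.7 and 4217 normalized counts in the 3 control libraries, and 19409.9, 19855 and 19327 in the 3 dexamethasone libraries, a log2 fold change of 2.25 (adjusted p = 1.7e-25 in limma). Slc40a1, the iron exporter ferroportin, fell by 1.28 on the log2 scale. The ferritin chains that store iron parted, as the heavy chain Fth1 rose by 0.65 and the light chain Ftl1 fell by 0.66 on the log2 scale. Ferritin genes have many processed copies in the genome, so both counts are uncertain.

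Txnrd1, Gpx1, Gpx3 and Gpx4 are selenoproteins, which carry selenocysteine at the active site. Of 20 tested selenoproteins, these 4 included, 7 were higher and 10 lower, with a median log2 fold change of -0.16, or -0.275 at the same total. Selenow had 6066, 6076 and 5962 normalized counts in the control libraries and 1975, 1821 and 1957 in the dexamethasone libraries, a log2 fold change of -1.65 (adjusted p = 1.2e-21 in limma). Selenos and Selenof, both of the endoplasmic reticulum, had log2 fold changes of -0.70 and -0.26, that of Selenof being -0.45 after quantile normalization. Sephs2, the selenoprotein that makes selenophosphate, rose 2.29-fold.

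Of 9 tested genes that make selenocysteine, insert it or bring in selenium, 6 were higher and 1 lower, with a median log2 fold change of 0.19 (0.0715 at the same total and 0.046 after quantile normalization). After quantile normalization 2 were lower. Lrp8, a receptor of selenoprotein P, had 1119, 1168 and 1139.8 normalized counts in the control and 6390.2, 5891 and 5969.7 in the dexamethasone libraries, a log2 fold change of 2.41 (adjusted p = 1.8e-24 in limma). Eefsec, the elongation factor for selenocysteine, and Sephs1, a homologue of Sephs2, rose by 0.80 and 0.65 on the log2 scale. Sepsecs, which makes the selenocysteine on its transfer RNA, fell by 0.46. Secisbp2l, of highest mean in the list, passed as higher at 0.16 (adjusted p = 2.4e-04 in limma), did not pass at the same total, at 0.05, and passed as lower after quantile normalization, at -0.07.

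On the side of production, 7 of 11 tested genes for sources of superoxide or hydrogen peroxide were lower and 2 (Xdh and Aox1) higher, with a median log2 fold change of -0.44, or -0.241 without a filter. Xdh, xanthine dehydrogenase, whose oxidase form releases superoxide, was the transcript of highest mean and rose 1.77-fold, with 16480.1, 16946 and 16329 normalized counts in the 3 control libraries, and 31568, 27928 and 28608 in the 3 dexamethasone libraries. Its groups did not overlap, and the log2 fold change was 0.82 (adjusted p = 3.0e-15 in limma). Maoa, the mitochondrial monoamine oxidase, which releases hydrogen peroxide, fell by 1.03 on the log2 scale. The dual oxidase Duox2 fell from 254 ± 19.3 to 33.5 ± 2.45 normalized counts (SD, n = 3 each), and Duoxa1, the maturation factor of the related Duox1, from 198 ± 39.6 to 52.6 ± 3.23. Duox1 itself had a log2 fold change of -0.09 (adjusted p = 0.697 in limma).

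Other gene groups moved between the groups together with these enzymes, and their part in the changes of the 10 genes was not tested. All 12 proliferation genes tested were higher with dexamethasone (limma adjusted p under 0.05), with a median log2 fold change of 2.56. Their summed level was 46289, 47285 and 49762 normalized counts in the 3 control libraries, and 301900.02, 292905 and 286796 in the 3 dexamethasone libraries, with Mki67 the most abundant. The summed level of the 12 osteoblast markers was 2285311, 2402192 and 2423862 in the control and 2255612, 2115830.4 and 2166972 normalized counts in the dexamethasone libraries. That sum held a fall of Col1a2 and a rise of Spp1, the gene of osteopontin, from 33595 ± 988 to 1279674 ± 29571 normalized counts (SD, n = 3 each), and the median log2 fold change of the list was -1.54. Of 3 osteocyte markers tested, 2 were higher (at the same total and with edgeR the other was lower), the most abundant being Pdpn at 0.68 on the log2 scale, while Dmp1 went from 38.5 ± 2.66 to 5639 ± 326 normalized counts (SD, n = 3 each).

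Macrophages also express Hmox1 and Sod2, and the part of such cells in the changes of these genes was not tested. The 7 macrophage markers summed to 1493, 1480.5 and 1473 normalized counts in the 3 control libraries, and 1639, 1493 and 1688 in the 3 dexamethasone libraries. Of the 6 tested, 4 (Cd14, Cd68, Mrc1 and Cd163) were higher and 2 (Lyz2 and Csf1r) lower, and the most abundant, Lyz2, fell from 996 ± 9.7 to 351 ± 13.6 normalized counts (SD, n = 3 each) while Cd14 rose by 1.21 on the log2 scale. At a mean of at least 100 the macrophage counts were 2 higher and 1 lower, with at least 10 in every library 2 were higher, and without control replicate 3 1 was lower. Fcgr1 had 3 reads or fewer in every library. Erythroid cells are rich in Cat, Gpx1 and Prdx2 products, and the paper describes lysis of red blood cells and the isolation of Osteocalcin-positive cells. The 7 erythroid markers summed to 43.1, 37.2 and 45.7 normalized counts in the control and 31.5, 61.04 and 41.9 in the dexamethasone libraries, with Hba-a1 and Hbb-bt at 3 reads or fewer in each library. The most abundant erythroid marker, Alas2, had a log2 fold change of -0.09 (adjusted p = 0.824 in limma), and Hbb-bs stood at or below 10.5 normalized counts.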

How the data were processed

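RNA was sequenced from 3 control and 3 dexamethasone libraries. Per the submitters' processing notes and the study's methods, the authors aligned and counted reads per gene with STAR 2.7.10a on GRCm39 and normalized them with DESeq2 1.36.0, and the deposited signal is the read count of each gene divided by 1 size factor per library. For the annotation release and the strand used in counting, nothing is given in the sources used here. Whole reads came back for 100% of the values (tolerance 0.001 of a read), and 28087 of the 29616 genes had a symbol.

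Values were compared as log2(normalized count + 1) with limma 3.58.1 (eBayes with trend, R 4.3.3) over the 17442 genes with a mean of at least 10, with Benjamini-Hochberg adjustment over all of them. A gene was called at an adjusted p under 0.05, and a stricter call also asked for a log2 fold change of 1 or more in size. Such fold changes understate the change of low genes. On the recovered reads, edgeR 4.0.16 called 12909 genes and DESeq2 1.42.0 called 12261, against 12645. Lengths, 75-base uniqueness and symbols came from GENCODE M21 on another build than the files, so gene coordinates are left out, and promoters from RefSeq. No exon of the 10 genes overlapped another gene there. The fits were tested on simulated counts of 17252 genes, where limma recovered 89 of 97 genes at a log2 fold change of 1 and 95 of 95 at 2, and called 9 unchanged genes. The simulation changed only these few genes, about equally up and down, with an assumed spread between libraries. In the data 12645 genes were called, so the simulation gives no error rate for them and does not test the scaling.

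The 10 genes and the lists were chosen with earlier results of these data known. The genes named are the 10 enzymes, every NRF2 regulator with a mean of at least 100, of each other pathway list up to 4 genes of largest change among those called with a mean of at least 100 and up to 2 of highest mean, and up to 2 markers of highest mean per cell type. These means, and those behind genes called most abundant, are over all 6 libraries. Bglap, Bglap2, Duox1, Acp5, Ocstamp and markers named for being low or near 0 were chosen after their values were seen. So were genes named in brackets without a value. 2 list genes are not reported here and were left out of the counts, sums and medians of their lists after these had been seen. Libraries of a group differed beyond sampling noise (chi-square of 3.56 to 28.9 per degree of freedom), and all 6 were used. Dexamethasone replicate 3 gave 28.9 with replicate 1 and 20 with replicate 2, and the other pairs gave 3.56 to 8.32.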

Additional observations from a re-analysis of the deposited data

How the results depend on the processing

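Alternatives were pseudocounts of 0.5 and 5, other filters, the same total, quantile normalization, limma without its trend, edgeR and DESeq2 on recovered reads, the replicate block and each library left out. Txnrd1, Nqo1, Hmox1, Cat, Sod2 and Sod3 were called in the same direction in all 17, and Gpx3 in the 16 that kept it, since it was below a mean of 100. The replicate block gave 12345 called genes, 6341 higher and 6004 lower, against 12645, and 3 of the 10 enzymes were lower and 5 higher as before. Replicate numbers did not pair libraries, since same-numbered deviations correlated at -0.0999, -0.105 and -0.0199, and none of the 6 libraries correlated best with its own number. At a mean of at least 100, which left 12021 tested genes, the stricter calls were 1350 higher and 820 lower against 2037 and 1857. Of these calls 62.2% were higher, against 52.3%, and the cause of that move was not tested.

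At the same total 5 of the 10 enzymes were lower, against 3, and 7481 of the 17442 tested genes, against 6148. With the median of all tested genes at the same total taken off, Sod1 stood at -0.0533 and Gpx1 at -0.286. Their main values were -0.052 and -0.286, a return that follows because the same total scales each library by a single factor. After quantile normalization, with the median there taken off, Sod1 stood at -0.162 and Gpx1 at -0.113. Sod1 became a call with edgeR (-0.0779), after quantile normalization (-0.237) and at the same total (-0.166), and Gpx1 at the same total (-0.399) and without dexamethasone replicate 2. Gpx4 lost its call in limma without trend (-0.112) and without control replicate 2. With a library left out, the log2 fold change ran from -0.399 to -0.124 for Gpx1 and -0.15 to -0.0853 for Gpx4. The difference in the share of Sod3, -0.996 percentage points, was -2.59 without division by length and -3.47 with the length of all exons, and that of Gpx3, 0.305, was 0.505 and 0.479, and 0.181 with Gpx7 and Gpx8 in the sum. Among the 10 levels in the control libraries Sod1 was in place 1 by principal transcript, 2 without division by length and 5 with the length of all exons, and Txnrd1 in place 5, 1 and 6. In the dexamethasone libraries these were 1, 4 and 6 for Sod1 and 3, 1 and 2 for Txnrd1. The length of all exons, the sum with Gpx7 and Gpx8, the places and the median of the 10 under each alternative were chosen after seeing the data. The places and shares moved because the length used or the genes summed changed, and the cause of the other changes was not tested.

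Some signs changed. The median of the 10 enzymes, 0.135, was -0.0339 after quantile normalization and -0.052 at a mean of at least 100. At the same total Keap1 stood at -0.0735, Bach1 at -0.0835, S100a9 at -0.019, the peroxide-removing enzymes at a median of -0.00871 and the smooth muscle and pericyte markers at -0.0484. After quantile normalization Keap1 stood at -0.115, Bach1 at -0.159, Mafk at -0.00744, Secisbp2l at -0.0676, Alas2 at 0.0381, Pparg at 0.113, the peroxide-removing enzymes at -0.0339 and the peroxiredoxin list at -0.00353. At a mean of at least 100 the medians were -0.112 for the peroxide-removing enzymes and -0.532, against 0.231, for the fibroblast and tendon markers, without a filter -0.415, against 0.0638, for smooth muscle and -0.599, against 1.9, for chondrocyte markers, and with DESeq2 Alas2 was at 0.0196. With a library left out, Alas2 ran from -0.499 to 0.246, Pparg from -0.11 to 0.139 and the smooth muscle median from -0.126 to 0.172. The cause was not tested. Gpx3 had 24 to 80 reads and Gpx1 had 91 to 152, and the part of depth was not tested.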

Other observations

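Markers of further cell types were measured beside the antioxidant enzymes, and their part in the changes was not tested. Endothelial markers summed to 2190.5, 2319 and 2184 normalized counts in the 3 control libraries, and 3912, 3305 and 3581 in the 3 dexamethasone libraries. Vwf was the most abundant, with a log2 fold change of 0.76 (adjusted p = 4.1e-12 in limma), Kdr had one of 0.25, and Cdh5 and Tie1 had 3 reads or fewer in each library. Of the 6 tested, 4 (Vwf, Kdr, Pecam1 and Esam) were higher and 2 did not pass. Kdr, with 0.14, and Pecam1 lost their calls at the same total. Pecam1 and Esam were low, with means of 15.7 and 14.3 normalized counts in the control and 26.3 and 33.0 in the dexamethasone libraries. At a mean of at least 100, 2 of the endothelial markers were higher.

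Smooth muscle and pericyte markers summed to 148839.9, 156656 and 154371 normalized counts in the control libraries and 24106, 22578 and 23689 in the dexamethasone libraries, with 3 of 7 tested (Acta2, Myh11 and Mcam) lower and 2 (Cspg4 and Des) higher. In this list 1 was higher at the same total, with DESeq2, and without control replicate 3, dexamethasone replicate 1 or dexamethasone replicate 3, and 1 was lower at a mean of at least 100. Nearly all of the control level was Acta2, which fell by 3.54 on the log2 scale, while Cspg4 rose by 0.43, or 0.23 after quantile normalization. Chondrocyte markers summed to 5965, 6414 and 6417 in the control and 24976, 22363 and 22117 normalized counts in the dexamethasone libraries. Sox9 and Col2a1, the most abundant of them, rose by 1.92 and 1.90 on the log2 scale, 1 of the 3 tested, Comp, was lower, and Col9a1 and Matn1 had 3 reads or fewer in each library. Col10a1 and Col9a2, too low to be tested, went from means of 10.5 and 6.19 normalized counts in the control to 4.23 and 2.07 in the dexamethasone libraries, without overlap. Acan, also too low to be tested, had overlapping groups. Fibroblast and tendon markers summed to 9593, 10175 and 10253 and 11202, 11116 and 11475 normalized counts, with 3 of 6 tested (Cd34, Mkx and Clec3b) higher and 2 (Dcn and Scx) lower, Cd34 at a log2 fold change of 1.04 and Dcn at -1.51.

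The osteoclast list was nearly all Ctsk, which fell from 13146 ± 309 to 8353 ± 222 normalized counts (SD, n = 3 each), and the other gene tested, Mmp9, was also lower. Acp5 and Ocstamp were too low to be tested and had more reads in sum with dexamethasone, Acp5 with 0 reads in each control library and 7, 26 and 17 in the dexamethasone libraries, and Ocstamp with 0, 6 and 1 against 20, 6 and 14 reads. Without a filter 2 of the osteoclast markers were higher, and without any 1 of the control replicates 1 was. The sums of the list were 12892, 13509 and 13133 in the control and 8616, 8182 and 8412 in the dexamethasone libraries. Adipocyte markers summed to 31.2, 32.3 and 38.7 normalized counts in the control and 1456, 1452 and 1563 in the dexamethasone libraries, nearly all of the latter being Fabp4. Of the 2 tested, 1 was higher. Without a filter, or without any 1 of the control replicates, 2 were higher, and with at least 10 in every library 0 were. Cfd, too low to be tested, rose from a mean of 2.49 to 16.9 normalized counts without overlap. Adipoq and Plin1, also too low to be tested, had overlapping groups. Pparg had 18.4, 20.5 and 26.4 and 20.03, 25.1 and 19.8 normalized counts, and Cidec and Lep had 3 reads or fewer in each library.

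Neutrophil markers summed to 1029, 1019.6 and 985 normalized counts in the 3 control libraries, and 1158, 1097 and 1269 in the 3 dexamethasone libraries. S100a9, the most abundant, had a log2 fold change of 0.09 (adjusted p = 0.284 in limma), S100a8 was the 1 of 6 tested that was higher, at 0.87 (2 without dexamethasone replicate 3), and Ly6g had 3 reads or fewer in each library. Skeletal muscle markers summed to 74.4, 81.2 and 67.7 and 80.1, 59.95 and 62.8 normalized counts. Mylpf, the most abundant, did not pass, Acta1 fell by 1.56 on the log2 scale as the 1 of 3 tested that was lower (0 with at least 10 in every library, and 1 was higher without control replicate 1 or dexamethasone replicate 2), and Myh4 had 3 reads or fewer in each library.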
